A study of Homo sapiens with 24 samples.

Results

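To describe the chromatin at the genes for integrins and laminins, peak lists of 3 histone modifications were read around the start sites and in the introns of 37 genes, 26 for integrin subunits and 11 for laminin chains, among 19785 protein-coding genes. The genes are a fixed list of names, chosen with earlier results of these data known. The cells were PANC-1, a line from a human pancreatic ductal carcinoma, transfected either with a control siRNA or with siRNA against PHF13, a PHD finger protein that reads methylated histone H3 lysine 4. The siControl cells were untreated, and the siControl+TGFb and siPHF13+TGFb cells received TGFb at 10 ng/ml for 48 h after transfection, so there were no PHF13-depleted cells without TGFb. Each of the 3 groups had 2 libraries for each of H3K4me3, H3K27ac and H3K27me3, or 18 peak lists in all, and the labels do not say whether the 2 came from separate cultures. A further 6 input samples were not analysed here.

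Integrins are receptors of an alpha and a beta subunit that tie the cytoskeleton to the matrix outside the cell. Laminins are trimers of an alpha, a beta and a gamma chain and form the sheet of the basement membrane, to which epithelial cells hold on through integrins. In epithelial-mesenchymal transition, the change in cell state for which TGFb was given, cells are known to move from basement membrane adhesion towards adhesion to fibronectin and collagen. H3K4me3 marks start sites of genes that are active or ready for use, H3K27ac marks active start sites and enhancers, and H3K27me3 is the mark of the Polycomb repressors.

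The value reported is the number of bp covered by peaks within 5 kb of any start site of the gene's coding transcripts (hg19, GENCODE v44 on that build). A peak list holds no read counts, so sequencing depth is unknown, and the length of a list moves every value taken from it. H3K4me3 lists held 27869 to 39202 peaks. H3K27ac lists held 6004 to 36104 and H3K27me3 lists 59573 to 165717, and replicate 1 of siPHF13+TGFb was the shortest for every modification. The names written inside the lists do not match the labels: those labelled siControl+TGFb carry "3AT" and those labelled siPHF13+TGFb carry "NCT". Groups follow the labels here, and every direction between the TGFb groups rests on them. An siRNA acts on the mRNA, so peaks at PHF13 would not check the labels either. Start sites of 6 of 7 ductal epithelial marker genes had H3K4me3 in all 6 lists. Of 4 leukocyte markers 1 did (CD14), and none of the 4 had H3K27ac. Neither of the 2 endothelial markers had an H3K4me3 peak in any list, and 2 of 3 fibroblast markers had it in all 6.

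Most of the 37 genes carried H3K4me3. A peak was present in all 6 lists for 22 of them, in 1 to 5 lists for 6 and in none for 9, where 72.2% of all protein-coding genes had it in all 6. H3K27ac was less complete, with 8 genes marked in all 6 lists, 16 in some and 13 in none. Of all coding genes 20.5% had it in all 6 and 36.1% in none. H3K27me3 was in all 6 lists at 8 genes, in some at 9 and in none at 20, where the shares of all coding genes were 21.2% in all 6 and 53.6% in none. For H3K27ac and H3K27me3 these counts are near the shares of all genes. In untreated siControl cells 13 genes had H3K4me3 with H3K27ac in both libraries and no H3K27me3 there, which is 35.1% of the list against 43.4% of all coding genes. H3K4me3 together with H3K27me3 and no H3K27ac, the pair of marks called bivalent, was found at 6 (16.2% against 14.1%), and H3K27me3 alone at another 6 (16.2% against 11.2%). For all these shares a mark in 1 library only was counted as absent. In the last groups this was so for H3K27ac at ITGB8 and for H3K4me3 at ITGA8, ITGB7 and LAMA1.

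**Figure D1:**
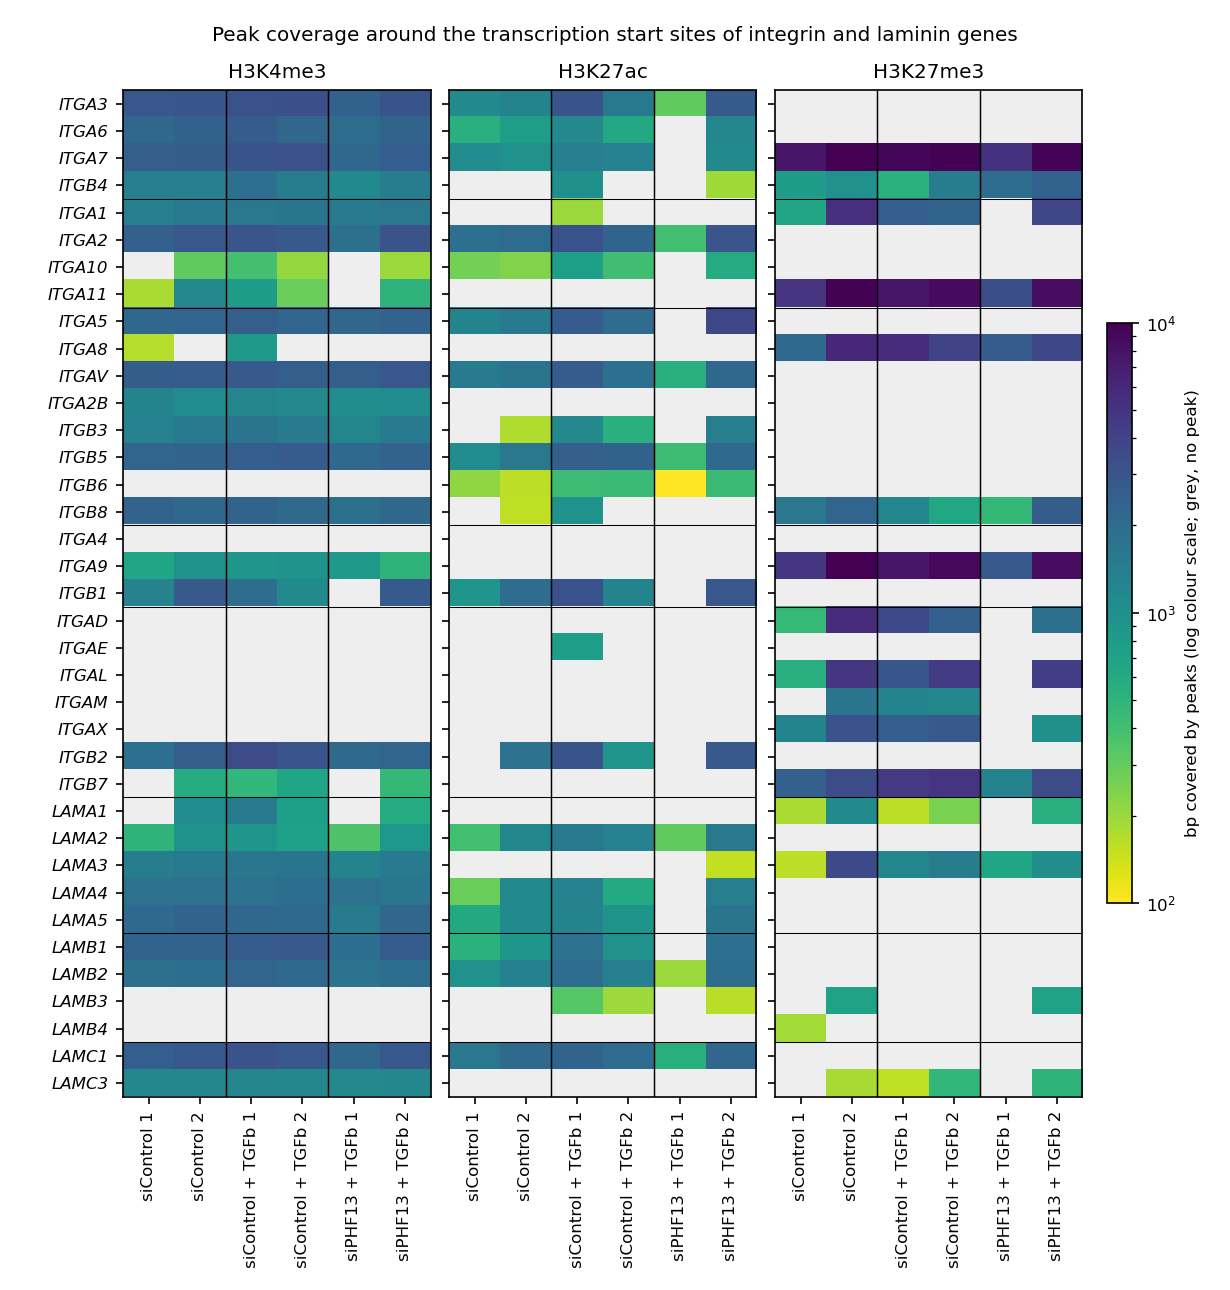
Bp covered by peaks of H3K4me3, H3K27ac and H3K27me3 (panels) within 5 kb of the start sites of the 37 genes (rows, grouped by role with horizontal lines) in the 6 lists of each modification (columns), on a log colour scale with grey for no peak. H3K4me3 is present in all 6 lists for 22 genes. The leukocyte genes ITGAD, ITGAL, ITGAM and ITGAX carry no modification but H3K27me3. The H3K27ac column of siPHF13+TGFb replicate 1 has the fewest marked genes, 8.

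To determine which genes differed between groups, a gene was counted where both libraries of one group lay above both of the other. With TGFb in siControl cells, H3K4me3 was higher at 10 of the 28 genes with a peak in any list, beside 46.3% of all genes, and lower at 0, beside 2.11%. H3K27ac was higher at 13 of 24, beside 53.2% of all genes, and lower at 0, beside 0.0316%. H3K27me3 was higher at 1 of 17 (ITGB7), beside 5.83%, and lower at 1 (ITGB8), beside 6.48%. For H3K27ac and H3K27me3 the shares of the list were near those of all genes. With PHF13 depletion under TGFb, H3K4me3 was lower at 14 of 28, beside 60.5% of all genes, and higher at 0, beside 0.281%. H3K27ac was lower at 3 of 24 (ITGA7, ITGB5 and LAMB3), beside 10.1%, and higher at 0, beside 0.0158%. H3K27me3 was lower at 6 of 17, beside 25.4%, and higher at 1 (ITGB4), beside 1.08%. Without siPHF13+TGFb replicate 1, H3K27ac was higher at 9 genes of the list, and without replicate 2 it was lower at 19. No share of all genes is set beside these counts, so they are not read as particular to the list. The 2 comparisons share the siControl+TGFb libraries, so a gene high in these is counted in both.

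The counts changed when each library was divided by its median over genes with a peak in all 6 lists. H3K4me3 was then higher with TGFb at 6 genes (ITGA1, ITGA7, ITGB2, ITGB5, LAMB1 and LAMB2) and lower at 4 (ITGAV, ITGB8, LAMA5 and LAMC3), with 16.4% and 16.9% of all genes. H3K27ac was higher at 7 (ITGA3, ITGA5, ITGA10, ITGB3, ITGB5, ITGB6 and LAMB3) and lower at 1 (LAMC1), with 27.1% and 9.14% of all genes. H3K27me3 was higher at 4 (ITGA11, ITGAX, ITGB7 and LAMC3) and lower at 2 (ITGB8 and LAMA1), with 10.9% and 12.0%. With PHF13 depletion H3K4me3 was higher at 5 (ITGA1, ITGA5, ITGAV, ITGB8 and LAMC3) and lower at 4 (ITGA7, ITGB2, LAMA1 and LAMA3), with 18.0% and 18.1% of all genes. H3K27ac was then higher at 1 (LAMA2) and lower at 2 (ITGA7 and LAMB3), with 4.47% and 13.7%. H3K27me3 was higher at 3 (ITGA11, ITGB4 and ITGB8) and lower at 4 (ITGAD, ITGAM, ITGAX and ITGB7), with 9.84% and 17.6%. Values in bp are those of the lists as deposited, and a direction given from them for a gene and modification not named here was not seen after this scaling.

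By limma over all genes tested, on log2(bp + 100), no integrin or laminin gene passed a Benjamini-Hochberg adjusted p of 0.05 in either comparison for any modification. The lowest adjusted p was 0.42, for H3K4me3 with PHF13 depletion. Leaving out siPHF13+TGFb replicate 2 kept a single short list in that group. From it, limma called most genes tested for H3K27ac with PHF13 depletion, in the list as over all genes. Without siControl replicate 1 it called 901 genes for H3K27me3 with TGFb, and none of the list. Over all genes limma called 19 and 24 for H3K4me3 (TGFb and PHF13 depletion) and 0 for H3K27ac and for H3K27me3 in both. At an unadjusted p under 0.05 the H3K4me3 fits held 470 and 1335 of 15295 genes, the H3K27ac fits 89 and 6 of 12642, and the H3K27me3 fits 176 and 211 of 9181. Among the 37 genes, ITGA7 and ITGB2 were under 0.05 unadjusted for H3K4me3 in both comparisons and ITGAM for H3K27me3 with PHF13 depletion. With 2 libraries against 2, the exact permutation test of a single gene cannot give less than 0.333, and all p-values measure the spread between these libraries, which may be technical. The median difference with TGFb was 0.16 for the list and 0.12 for all genes in H3K4me3, 0.81 and 0.58 in H3K27ac, and 0.29 and 0.04 in H3K27me3. With PHF13 depletion the medians were -0.26 and -0.21, -1.23 and -1.36, and -0.63 and -0.79. Each library was also centred on its median of log2(bp + 100) over genes with a peak in all 6 lists. This moved the median of all genes from 0.58 to 0.21 for H3K27ac with TGFb and from -1.36 to -0.33 with PHF13 depletion.

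**Figure D2:**
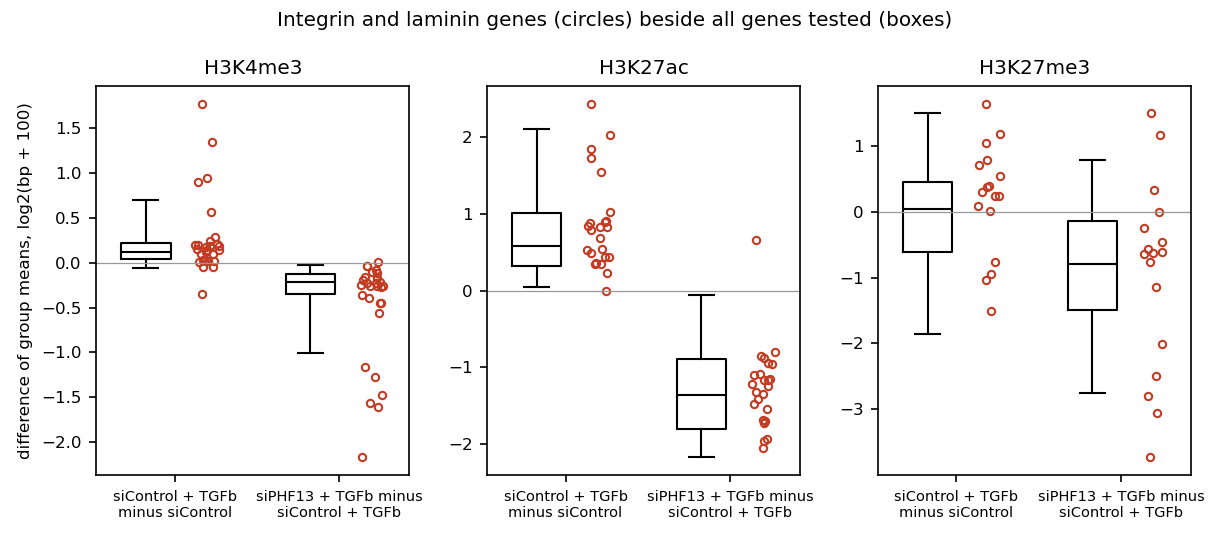
Difference of group means of log2(bp + 100) for H3K4me3, H3K27ac and H3K27me3 (panels) in both comparisons, with circles for the integrin and laminin genes and boxes for all genes tested (line, median; box, quartiles; whiskers, 5th to 95th percentiles). In H3K27ac all 24 genes are at or above 0 with TGFb, and all but 1 are below 0 with PHF13 depletion, as are the boxes of all genes.

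Because the names inside the lists exchange the TGFb groups, the lists labelled siPHF13+TGFb were also set against siControl. H3K4me3 was higher at 1 gene (ITGA1), beside 1.90% of all genes, and lower at 2 (ITGA2B and LAMA4), beside 20.0%. H3K27ac was higher at 0 and lower at 0, beside 0.0554% and 0.206%. H3K27me3 was higher at 1 (ITGB4), beside 0.272%, and lower at 1 (ITGAX), beside 11.6%. If the names and not the labels were right, these would be the values for TGFb, and the directions for PHF13 depletion would turn round.

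Among the laminin receptors, ITGA3 and ITGA6 had H3K4me3 and H3K27ac without H3K27me3, and ITGB4 had H3K4me3 with H3K27me3. ITGA3, which pairs with the beta1 subunit in keratinocytes and many carcinomas, had H3K27ac over 1119 and 1266 bp in untreated siControl cells, 3035 and 1566 bp in siControl+TGFb, and 308 and 2691 bp in siPHF13+TGFb (replicates 1 and 2 in this order here and below). Both TGFb control libraries were above both untreated ones. Of the siPHF13+TGFb libraries, replicate 1 was below all of these, and replicate 2 lay between the 2 TGFb control libraries. Over the start site itself (chr17:48133584-48134943) the peaks covered 163 and 307, then 1341 and 475, then 308 and 1298 bp. The log2 difference of the whole window with TGFb was 0.82, against a limma standard error of 1.48. That standard error came from the fit of all 3 groups and was the same for every gene of the list in H3K27ac. H3K4me3 at ITGA3 covered 2864 and 2897, then 3159 and 3253, then 2395 and 3018 bp, so that siControl+TGFb was above both other groups, with log2 differences of 0.15 with TGFb and -0.25 with PHF13 depletion. ITGA6, the partner of beta4 in hemidesmosomes, had 533 and 765, then 1148 and 625, then 0 and 1176 bp of H3K27ac, and its groups overlapped in both comparisons.

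ITGB4, whose long cytoplasmic tail anchors keratin filaments, had, alone in the list as deposited, more H3K27me3 in both siPHF13+TGFb libraries than in both siControl+TGFb ones. H3K27me3 there covered 802 and 974 bp in untreated siControl cells, 531 and 1451 bp in siControl+TGFb, and 1914 and 2338 bp in siPHF13+TGFb. Both siPHF13+TGFb values were also above both untreated ones, although replicate 1 came from the shortest list. The mean was 2126 ± 300 bp (SD, n = 2) against 991 ± 651 bp, a log2 difference of 1.16, which limma did not call (adjusted p = 0.88). The groups stayed apart with the libraries scaled to 1 median, where ITGA11 and ITGB8 were higher too, but at a stricter q no gene of the list was higher. H3K4me3 at ITGB4 covered 1406 and 1362, then 1875 and 1457, then 1125 and 1415 bp, and a peak was in all 6 lists. H3K27ac was present in 1 siControl+TGFb list (997 bp) and 1 siPHF13+TGFb list (194 bp).

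ITGA7, a laminin receptor of muscle, had all 3 modifications in its window, but not on the same promoter. Its H3K27me3 covered 7565 and 10634, 9471 and 9686, and 5050 and 9508 bp, lowest in siPHF13+TGFb replicate 1, with overlapping groups. H3K4me3 lay over the downstream promoter (chr12:56101466-56101688 holds 4 of its start sites) with 856 and 965, then 1279 and 1368, then 667 and 939 bp within 2 kb, where H3K27ac was at 0 in every list. The TGFb control libraries were the highest here, above both other groups. More of the H3K4me3 in the window, 1737 and 1613, 1943 and 1866, and 1498 and 1581 bp, lay in chr12:56109395-56111375 over the start sites of the neighbouring gene BLOC1S1, and the counts and the limma values of ITGA7 include it. The H3K27ac counted for ITGA7 (1094 and 971, 1365 and 1303, 0 and 1107 bp) came from 1 region, chr12:56109450-56110892, which holds start sites of BLOC1S1 as well. ITGA7 and ITGA1 were the 2 genes of the list with another coding gene's start site in the window.

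Among the collagen receptors, ITGA2 had H3K4me3 and H3K27ac in all 6 lists, and ITGA11 had H3K27me3 in all 6. ITGA2 had H3K27ac in all 6 lists, over 1873 and 2002, then 3110 and 2282, then 400 and 2952 bp. Both siControl+TGFb values exceeded both untreated ones by a log2 difference of 0.44, and part of this came from a region 1657 bp from the start site that no siControl list held (473 and 249 bp with TGFb). H3K4me3 at ITGA2 ranged from 1841 to 3089 bp without a gap between groups. ITGA10, a collagen receptor of cartilage, had small peaks of H3K27ac at its start site, over 264 and 238, then 737 and 412, then 0 and 592 bp. The TGFb control libraries were above the untreated ones, also after scaling. Its H3K4me3 covered 0 and 306, 388 and 206, and 0 and 199 bp, lower in both siPHF13+TGFb libraries than in both siControl+TGFb ones.

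ITGA11, a receptor for fibrillar collagen on fibroblasts, had 3305 to 9771 bp of H3K27me3 in all 6 lists and H3K4me3 over 180 and 1143, then 801 and 289, then 0 and 500 bp. The values of the replicates spanned those of the groups. ITGA1, also a collagen receptor, shares its start site with PELO, and its H3K4me3, over 1367 and 1461, 1587 and 1684, and 1464 and 1608 bp, cannot be told apart from that of PELO. It was higher in both siControl+TGFb libraries than in both siControl ones. H3K27me3 in the same window covered 656 and 5348, 2523 and 2263, and 0 and 3762 bp.

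Of the fibronectin and vitronectin receptor genes, ITGA5, ITGAV, ITGB3 and ITGB5 were acetylated. ITGB5, a beta subunit that pairs with alphaV and binds vitronectin, was the only gene apart from ITGA7 with H3K4me3 and H3K27ac both apart in both comparisons. H3K27ac covered 1087 and 1612 bp in untreated siControl cells, 2468 and 2402 bp in siControl+TGFb, and 423 and 2087 bp in siPHF13+TGFb, in 1 region over its start site (chr3:124604087-124606644). The siControl+TGFb libraries were close to each other and above all 4 others. In means this was 2435 ± 46.7 bp (SD, n = 2) with TGFb against 1350 ± 371 bp without it, and 1255 ± 1177 bp with PHF13 depletion. H3K4me3 covered 2211 and 2315, then 2538 and 2656, then 2070 and 2358 bp, in the same order. After scaling, both modifications remained higher with TGFb, and neither remained lower with PHF13 depletion.

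ITGAV, the alpha subunit that ITGB3, ITGB5, ITGB6 and ITGB8 share, had H3K27ac over 1493 and 1696, then 2604 and 1851, then 545 and 2121 bp. Both TGFb control libraries were above both untreated ones as deposited, but not after scaling, where its H3K4me3 (2460 to 2869 bp) was lower with TGFb. ITGA5, the main fibronectin receptor subunit, had 1248 and 1525, then 2628 and 1997, then 0 and 3660 bp of H3K27ac. Its 2 siPHF13+TGFb libraries were the lowest and the highest of all 6. ITGB3 had the largest log2 difference of the list with TGFb, 2.44 in H3K27ac (standard error 1.48, the same for every gene of the list, adjusted p = 1 by limma). It had H3K4me3 in all lists (1217 to 1693 bp), while its H3K27ac covered 0 and 172 bp in untreated siControl cells, 1148 and 539 bp in siControl+TGFb, and 0 and 1384 bp in siPHF13+TGFb. H3K27ac over the ITGB3 start site was thus small or absent in untreated cells and present in both TGFb-treated control libraries.

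The subunits that form receptors activating latent TGFb, ITGB6 and ITGB8, had different marks. ITGB6 had no H3K4me3 and no H3K27me3 in any list, and its only H3K27ac in the window lay 4566 bp from the nearest start site, at chr2:161061390-161062119. The window took in 215 and 159 bp of it in siControl, 425 and 432 bp in siControl+TGFb and 16 and 435 bp in siPHF13+TGFb. The whole region covered 449 and 445, 692 and 727, and 162 and 722 bp, and the siControl+TGFb libraries were above the siControl ones by either measure. ITGB8 had H3K4me3 and H3K27me3 in every list. Its H3K27me3 covered 1605 and 2234, then 1204 and 630, then 464 and 2582 bp. As deposited, ITGB8 alone of the list had less H3K27me3 in both siControl+TGFb libraries than in both siControl ones. LAMA1 joined it after scaling. The log2 difference of ITGB8 was -1.03, with a standard error of 1.02. H3K4me3 ranged from 1823 to 2319 bp, and H3K27ac was in 1 siControl list (156 bp) and 1 siControl+TGFb list (954 bp).

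ITGA8, a receptor of kidney and mesenchyme, and ITGA2B, the platelet fibrinogen receptor subunit, were not acetylated in any list. ITGA8 had H3K27me3 over 2089 and 5916, 5500 and 3855, and 2614 and 3669 bp, lower in both siPHF13+TGFb libraries than in both siControl+TGFb ones, and H3K4me3 in only 2 lists (167 and 835 bp). The H3K4me3 peak assigned to ITGA2B covered 1273 and 1077, 1239 and 1136, and 1040 and 1068 bp, lower in both siPHF13+TGFb libraries than in both siControl+TGFb ones. It was 3530 bp from its start site, with no peak within 500 bp of the start site in any list. ITGA9, a receptor for tenascin-C, was bivalent in all 6 lists, with 4864 and 10027, 7599 and 9078, and 2750 and 8595 bp of H3K27me3. Its H3K4me3 covered 653 and 955, 883 and 948, and 821 and 496 bp, again lower in both siPHF13+TGFb libraries. ITGA4, a receptor for VCAM1 and fibronectin, had no peak of any of the 3 modifications in any of the 18 lists.

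**Figure D3:**
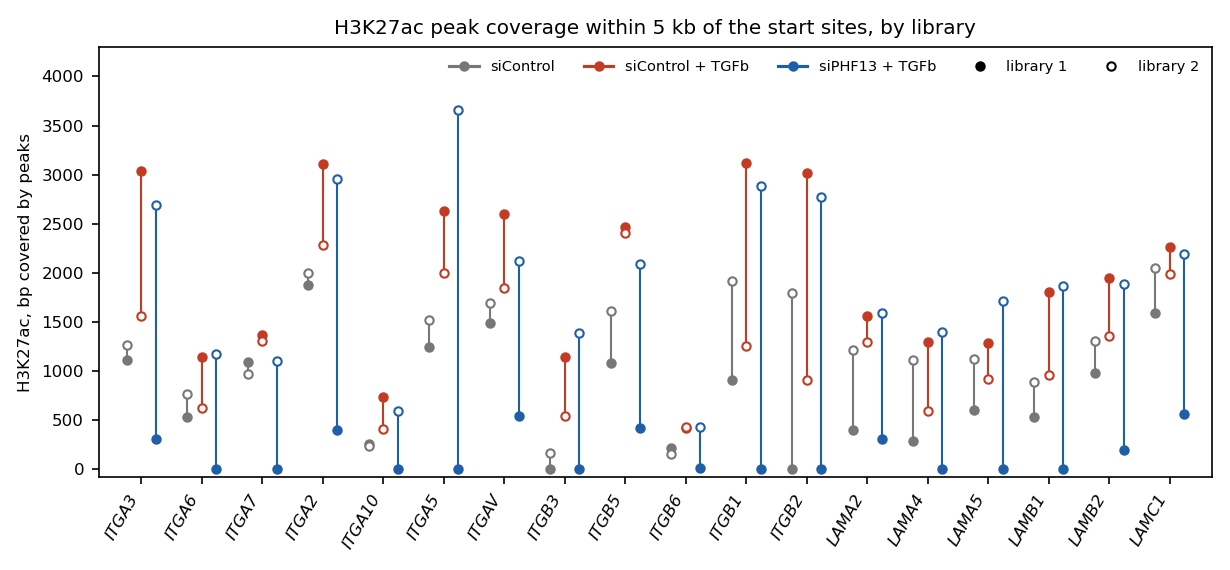
Bp covered by H3K27ac peaks within 5 kb of the start sites of the 18 genes with a peak in at least 4 lists, with 1 point for each library (filled, replicate 1; open, replicate 2), a line joining the 2 libraries of a group and colours for the groups. The siPHF13+TGFb lines are the longest for nearly every gene, with replicate 1 at the low end, and the siControl+TGFb points of ITGB5 (2468 and 2402 bp) lie above all other points of that gene.

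ITGB1 encodes the beta subunit that joins the largest number of alpha subunits, and its start sites were covered in an unusual way. H3K4me3 in the window covered 1297 and 2779 bp in untreated siControl cells, 1940 and 1116 bp in siControl+TGFb, and 0 and 2716 bp in siPHF13+TGFb. The strongest of these peaks had a -log10 q of 4.43 to 11.1, at the 17.4th to 37.8th percentile of all peaks in the same list. H3K27ac covered 913 and 1920, 3124 and 1259, and 0 and 2883 bp. For both modifications the replicates of a group differed more than the groups. The peaks lay on either side of the start sites, and H3K4me3 left chr10:33246874-33247665 uncovered in every list, a gap of 792 bp that holds 11 of the 14 coding start sites. This stretch is 75.3% G and C, with 101 CpG and an observed to expected CpG ratio of 0.905. The bases just upstream of the cluster of start sites are shown from GRCh37, minus strand, with each CpG in capitals, because they lie inside the gap and show its base composition.
ITGB1, chr10:33247254-33247363: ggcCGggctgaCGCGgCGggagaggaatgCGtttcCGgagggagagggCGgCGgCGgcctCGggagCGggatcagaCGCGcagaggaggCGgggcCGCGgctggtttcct
These 110 bases hold 16 CpG. The promoter of ITGA4, the integrin gene with no peak at all, was also rich in CpG, with 31 in the 300 bases of the RefSeq promoter table (GRCh38.p14) and 72.3% G and C.

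**Figure D4:**
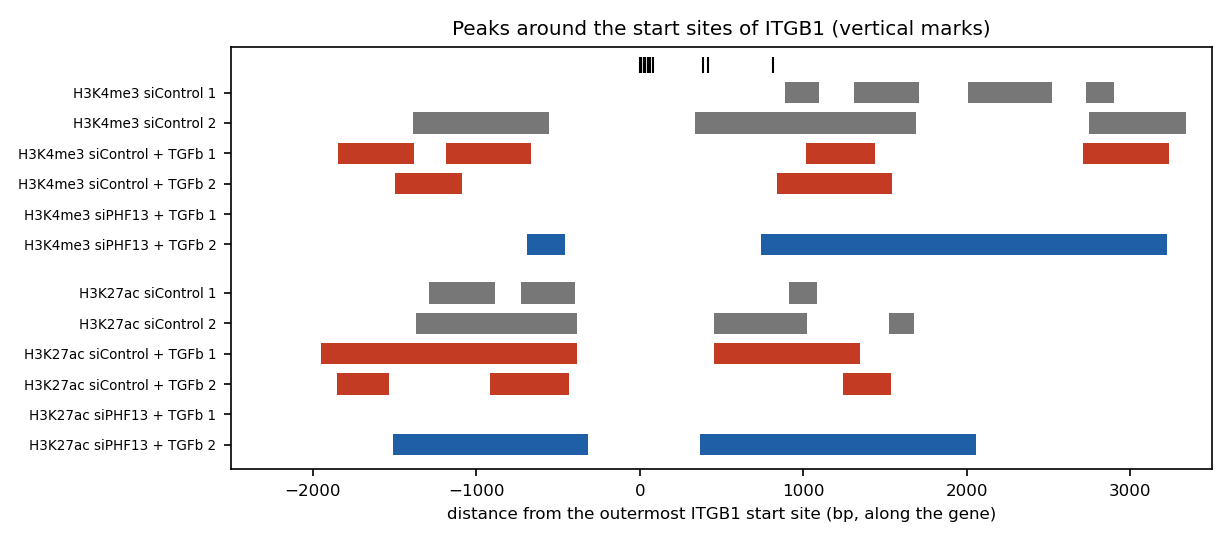
Peaks of H3K4me3 and H3K27ac in each of the 12 lists (rows) around ITGB1, by distance in bp from the outermost of the start sites counted, along the gene, with vertical marks for the 14 start sites and colours for the groups. No list has a peak over the cluster of start sites at 0, peaks flank it on both sides in 4 of the 6 H3K4me3 lists, and both siPHF13+TGFb replicate 1 rows are empty.

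The promoter table matched 26 of the 37 genes by symbol. The 15 matched genes with H3K4me3 in all 6 lists had a median observed to expected CpG ratio of 0.601 (0.111 to 0.935), and the 6 with none had 0.263 (0 to 0.799), ITGA4 being the highest of them. The median of the 15281 coding genes in the table was 0.768, above both. The 5 marked in some lists had a median of 0.748, with a range from 0.114 (ITGA10) to 0.848 (ITGB1).

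The leukocyte integrin genes mostly carried H3K27me3 and no H3K4me3. ITGAL, ITGAM, ITGAX and ITGAD, the alpha subunits that pair with beta2 on white blood cells, had no H3K4me3 or H3K27ac in any list. ITGAD had 456 and 5563 bp of H3K27me3 in siControl, 3573 and 2452 bp in siControl+TGFb, and 0 and 1818 bp in siPHF13+TGFb. For ITGAX the values were 1255 and 3100, then 2516 and 2779, then 0 and 991 bp. ITGAM had 0 and 1705, then 1257 and 1198, then 0 and 0 bp. For ITGAD, ITGAX and ITGAM alike, both siPHF13+TGFb libraries were below both siControl+TGFb ones within 5 kb, as deposited and after scaling, and ITGAM had no peak left in either. Replicate 1 was at 0 for each of them and came from the shortest H3K27me3 list, whose part in the difference was not tested, and at a stricter q 1 gene of the list was left as lower. Within 2 kb of the start sites ITGAM had 0 and 542, 1092 and 0, and 0 and 0 bp. ITGAX had 0 and 100, 819 and 0, and 0 and 0 bp there, so neither kept the groups apart. ITGAD did, with 456 and 2297, 2385 and 284, and 0 and 256 bp. ITGAM, ITGAX and ITGAD are neighbours on chromosome 16, so their values are not independent. ITGAL had 558 and 4804, 2895 and 4479, and 0 and 4250 bp within 5 kb, and its groups overlapped.

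ITGB7, the beta subunit of gut-homing lymphocytes, had H3K27me3 over 2437 and 3409 bp in untreated siControl cells, 4631 and 4966 bp in siControl+TGFb, and 1267 and 3498 bp in siPHF13+TGFb. As deposited no other gene of the list had more H3K27me3 in both siControl+TGFb libraries than in both siControl ones, and both siPHF13+TGFb libraries were again lower. Both differences of ITGB7 held after scaling, where ITGA11, ITGAX and LAMC3 were also higher with TGFb, and limma did not call it (log2 difference 0.71, standard error 0.84). H3K4me3 at ITGB7 lay 2081 bp from a start site and covered 0 and 580, 475 and 659, and 0 and 465 bp. ITGB2, the beta subunit of the leukocyte receptors, differed from its alpha partners in having H3K4me3 in all 6 lists and no H3K27me3. The H3K4me3 covered 1846 and 2475, then 3507 and 2949, then 2048 and 2240 bp, and was highest in the siControl+TGFb libraries in both comparisons, also after scaling. Most of it lay 2528 and 3457 bp from the nearest start sites counted. Within 2 kb of the counted start sites, H3K4me3 was present only in the siControl+TGFb lists (393 and 168 bp). The upstream end of the gene, chr21:46351904, was not a start site counted here. It lies inside the region at 2528 bp, chr21:46351316-46353081. H3K4me3 there covered 717 and 1273, 1766 and 1667, and 1020 and 1406 bp. H3K27ac at ITGB2 covered 0 and 1791, 3015 and 906, and 0 and 2769 bp. ITGAE, the subunit that binds E-cadherin, had no peak within 5 kb apart from H3K27ac in 1 siControl+TGFb list (753 bp).

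Of the laminin alpha chain genes, LAMA2, LAMA4 and LAMA5 were acetylated, LAMA3 had H3K4me3 with H3K27me3 and LAMA1 varied between libraries. LAMA3 encodes the alpha chain of the laminin under epithelial hemidesmosomes. Its H3K4me3 covered 1435 and 1541, then 1649 and 1662, then 1269 and 1479 bp, highest in siControl+TGFb in both comparisons, and all of it lay at the upstream promoter (chr18:21269417-21269648 holds 2 start sites). The second promoter, chr18:21452984-21453009, had neither H3K4me3 nor H3K27ac in any list. H3K27me3 at LAMA3 covered 159 and 3535, 1204 and 1445, and 651 and 1019 bp. Both siPHF13+TGFb values were below both siControl+TGFb ones, while the untreated replicates spanned the whole range.

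LAMA2, the alpha chain of muscle laminin, had both active marks at an internal promoter only (chr6:129811828-129811881). H3K27ac there covered 402 and 1215, then 1560 and 1300, then 310 and 1595 bp, and was higher in both siControl+TGFb libraries than in both siControl ones, but not after scaling. The start site of the full-length transcript had no peak of any modification within 2 kb. LAMA4, a laminin chain of vessels and mesenchyme, and LAMA5, a chain of most adult epithelial basement membranes, had H3K4me3 in all lists (1633 to 1878 bp and 1527 to 2320 bp) and H3K27ac in all but siPHF13+TGFb replicate 1 (287 to 1398 bp and 606 to 1711 bp where present). Their H3K27ac groups overlapped. H3K4me3 at LAMA4 covered 1771 and 1792, 1777 and 1878, and 1748 and 1633 bp, lower in both siPHF13+TGFb libraries than in both siControl+TGFb ones. LAMA1, a chain of embryonic basement membranes, had H3K4me3 over 0 and 1081, 1538 and 743, and 0 and 581 bp, lower in both siPHF13+TGFb libraries than in both siControl+TGFb ones. Its H3K27me3 was small, 0 to 1102 bp.

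The beta and gamma chain genes LAMB1, LAMB2 and LAMC1, which serve many laminins, had H3K4me3 in all 6 lists and no H3K27me3. LAMB1 had H3K27ac over 531 and 892, then 1802 and 965, then 0 and 1868 bp. LAMB2 had 979 and 1310, then 1944 and 1358, then 200 and 1889 bp. Both were higher in the siControl+TGFb libraries than in the siControl ones, with log2 differences of 0.85 and 0.48, and neither was after scaling. In H3K4me3 LAMB2 covered 1837 and 1905, then 2221 and 2064, then 1732 and 1901 bp, with siControl+TGFb above both other groups. LAMC1 covered 2542 and 2837, then 3068 and 2862, then 2091 and 2824 bp, in the same order by a smaller margin. Its H3K27ac, over 1590 and 2049, 2268 and 1994, and 561 and 2192 bp, had overlapping groups. LAMB1 H3K4me3 covered 2302 and 2306 bp in untreated siControl cells and 2620 and 2745 bp in siControl+TGFb, where the replicates differed by much less than the groups, and 1881 and 2641 bp in siPHF13+TGFb.

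LAMB3, the beta chain of the hemidesmosome laminin, had no H3K4me3 in any list. H3K27ac peaks 1576 to 1952 bp from a start site covered 0 and 0 bp in untreated siControl cells, 335 and 197 bp in siControl+TGFb, and 0 and 161 bp in siPHF13+TGFb. The siControl+TGFb libraries were the highest in both comparisons, also after scaling, and the single siPHF13+TGFb peak lay in another place than theirs. LAMC3 had H3K4me3 in all lists (1148 to 1223 bp) with H3K27me3 of up to 504 bp, and LAMB4 had a single H3K27me3 peak of 190 bp in 1 list.

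To look for marks away from the start sites, H3K27ac peaks of the 6 lists were merged and those kept that lay inside a gene, off its exons and more than 5 kb from every coding start site. The 37 genes held 76 such regions in 18 of them, out of 9611 in 3484 coding genes. ITGA2 had 14, ITGB5 12 and ITGB1 10, and no other gene had more than 5. Only 4 regions were in all 6 lists, and 31 were in 1 list, 20 of these in siControl+TGFb replicate 1. H3K4me3 was found on 21 of them, or 27.6%, beside 47.7% of all intronic regions. In total they covered 9119 and 19373 bp in untreated siControl cells, 49501 and 23134 bp in siControl+TGFb, and 2083 and 38042 bp in siPHF13+TGFb. The log2 ratio of mean bp was 1.35 with TGFb (pooled SD of the libraries 0.77) beside 1.29 for the intronic regions of all coding genes. With PHF13 depletion it was -0.86 (pooled SD 2.17) beside -0.73, and without siPHF13+TGFb replicate 1 it was 0.07.

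The 4 regions in all lists were in ITGA1, LAMA4 and ITGB1. The one in ITGA1 (chr5:52095804-52097380) lies over PELO and the start of its antisense RNA. The widest by its mean, LAMA4 chr6:112523695-112526264, covered 1514 and 2170, then 2536 and 2197, then 935 and 2570 bp, 31743 bp from the nearest coding start site. ITGB1 had chr10:33259567-33262399 with 1545 and 2181, 2629 and 2001, and 161 and 2463 bp, and chr10:33269840-33271321 with 1249 and 1281, 1470 and 1327, and 279 and 1466 bp. Both lie upstream of the main ITGB1 start sites, where a few longer ITGB1 transcripts overlap the divergent noncoding gene ITGB1-DT, so their gene cannot be told apart. These ITGB1 regions kept H3K27ac in siPHF13+TGFb replicate 1, in which the window around the start sites had none. The next widest regions were all absent from that replicate. In LAMB1 chr7:107588932-107590738 covered 383 and 1381, 1672 and 1169, and 0 and 1396 bp. In LAMC1 chr1:183107885-183109355 covered 259 and 768, 1471 and 675, and 0 and 1243 bp. Absent from siControl replicate 1 as well were ITGB5 chr3:124578654-124580682, with 0 and 380, 2029 and 1162, and 0 and 1222 bp, and ITGB1 chr10:33232488-33234090, with 0 and 831, 1527 and 943, and 0 and 1316 bp.

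Peaks in both siControl+TGFb libraries and in neither siControl one, called gained, were found for 10 of the 76 regions, beside 10.1% of all intronic regions. Regions with the converse pattern, called lost, were 0, beside 0.0936%. With PHF13 depletion 4 were lost, beside 2.83%, and 0 were gained, beside 0.0208%. The gained ones were 4 in ITGB5, 2 in ITGA2 and 1 each in ITGA5, ITGAE, ITGB1 and LAMA4. All 4 lost regions, 3 in ITGB5 and 1 in LAMA4, were among the gained ones. In ITGB5, chr3:124545867-124546391 covered 0 and 0 bp in untreated siControl cells, 498 and 524 bp in siControl+TGFb, and 0 and 0 bp in siPHF13+TGFb. The region chr3:124563765-124565160 of the same gene covered 0 and 0, 1396 and 410, and 0 and 0 bp, and chr3:124556152-124556617 covered 0 and 0, 466 and 166, and 0 and 0 bp. LAMA4 chr6:112538003-112538650 covered 0 and 0, 605 and 484, and 0 and 0 bp. These 4 were present with TGFb only in cells with control siRNA, by the labels. The fourth gained region of ITGB5, chr3:124553582-124554854, kept 444 bp in siPHF13+TGFb replicate 2, and ITGA2 chr5:52333657-52334878, at 0 and 0, 1177 and 1220, and 0 and 566 bp, kept part as well. So did the other ITGA2 region, chr5:52332442-52333390, with 0 and 0, 844 and 187, and 0 and 560 bp. In ITGA5 chr12:54804630-54805272 covered 0 and 0, 643 and 312, and 0 and 224 bp, and in ITGB1 chr10:33272501-33273228 covered 0 and 0, 570 and 327, and 0 and 465 bp. The ITGAE region, chr17:3697665-3699138, was wider in siPHF13+TGFb replicate 2 than in either siControl+TGFb library, at 0 and 0, 549 and 432, and 0 and 1474 bp. The LAMA4 region lies 48 bp from the start of a shorter LAMA4 transcript outside the basic set. Without siControl+TGFb replicate 2, 39 of 71 regions were gained with TGFb, beside 49.0% of all intronic regions, and without siControl replicate 2, 18 of 74 were, beside 18.5%. Regions lost with PHF13 depletion were 9 of 56 without siControl+TGFb replicate 1 (8.54% of all), 25 of 71 without its replicate 2 (29.5%), and 27 of 72 without siPHF13+TGFb replicate 2 (35.4%). With lists of equal length only 6 regions were left, and 0 of them were gained with TGFb, beside 7.61% of all intronic regions.

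**Figure D5:**
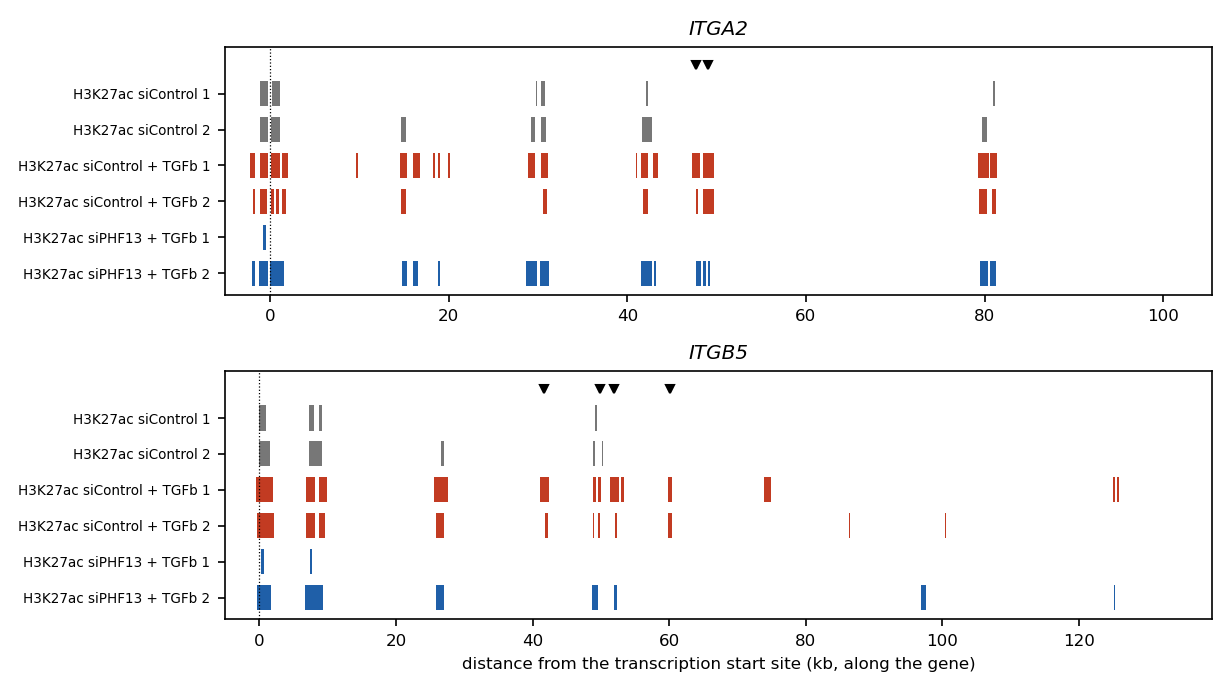
H3K27ac peaks in the 6 lists (rows) along ITGA2 and ITGB5, by distance in kb from the start site along the gene, with triangles over regions gained with TGFb and colours for the groups. The gained regions, 2 in ITGA2 and 4 in ITGB5, are empty in both siControl rows. The pair of broad ITGB5 peaks nearest its start site, found in all 6 rows, meets an annotated exon and was not counted as intronic.

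The middle 240 bases of 4 of these regions are shown from the plus strand of GRCh37, to let the sequence under these differences be read: 2 of the lost ITGB5 regions, the lost LAMA4 region, and the ITGA2 region with over 1 kb in both siControl+TGFb libraries. Capitals mark a match, on either strand, to 1 of 4 letter strings: TGANTCA (AP-1), GTCTAGAC and CAGACA (SMAD, the factors that TGFb receptors activate) or GGAATG (TEAD).
ITGB5, chr3:124546009-124546248: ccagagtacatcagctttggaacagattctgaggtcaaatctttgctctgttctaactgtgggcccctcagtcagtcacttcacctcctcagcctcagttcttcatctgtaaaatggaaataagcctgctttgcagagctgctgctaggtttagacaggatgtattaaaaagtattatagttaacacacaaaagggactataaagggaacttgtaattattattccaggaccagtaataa
ITGB5, chr3:124564343-124564582: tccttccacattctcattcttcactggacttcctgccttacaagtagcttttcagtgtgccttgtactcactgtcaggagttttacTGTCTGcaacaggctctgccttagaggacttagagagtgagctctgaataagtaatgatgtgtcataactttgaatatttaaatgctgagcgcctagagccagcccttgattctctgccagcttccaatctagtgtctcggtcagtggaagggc
LAMA4, chr6:112538207-112538446: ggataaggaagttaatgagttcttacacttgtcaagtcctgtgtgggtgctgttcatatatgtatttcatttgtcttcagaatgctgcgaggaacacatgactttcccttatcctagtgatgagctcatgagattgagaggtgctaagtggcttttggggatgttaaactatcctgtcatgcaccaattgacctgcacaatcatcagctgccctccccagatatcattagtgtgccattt
ITGA2, chr5:52334148-52334387: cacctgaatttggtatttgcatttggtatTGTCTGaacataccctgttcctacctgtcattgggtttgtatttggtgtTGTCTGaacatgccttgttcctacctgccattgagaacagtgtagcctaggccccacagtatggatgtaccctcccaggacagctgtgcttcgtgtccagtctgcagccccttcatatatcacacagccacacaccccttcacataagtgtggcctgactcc
CAGACA, read as TGTCTG on this strand, was matched in 1 of the ITGB5 windows and at 2 places in ITGA2, and the other windows shown had no match. The ITGAE window, not shown, had 4 matches to it. Over the 10 gained regions 4 windows held CAGACA, 1 held GGAATG and 0 held TGANTCA or GTCTAGAC. Among all 76 regions of the list the shares were 17.1%, 14.5%, 13.2% and 0%, and over all 9611 intronic regions they were 18.1%, 14.5%, 17.8% and 0.114%. A match is a description of the letters and marks no binding site.

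The partner genes of integrins and laminins, 26 genes for adaptors, tetraspanins, matrix ligands and other basement membrane proteins, had H3K4me3 in all 6 lists at 23. With TGFb H3K4me3 was higher at 8 of the 24 with a peak in any list, beside 46.3% of all genes, and H3K27ac at 14 of 20, beside 53.2%, and neither was lower at any. The latter included the adaptors TLN1 (talin), VCL (vinculin), ILK and PXN (paxillin). VCL, which links talin to actin, had H3K27ac over 1229 and 1438, then 2078 and 1967, then 0 and 1966 bp. It and TLN1 were the 2, of 20 and beside 10.1% of all genes, with less H3K27ac in both siPHF13+TGFb libraries than in both siControl+TGFb ones. The ligands divided by their marks. FN1, the gene for fibronectin, the ligand of ITGA5, was bivalent in every list, with 1548 to 1820 bp of H3K4me3, 3109 to 6963 bp of H3K27me3 and no H3K27ac. TNC, the gene for tenascin-C, had H3K4me3 over 192 and 1186, 1369 and 889, and 0 and 1234 bp, and H3K27ac in 1 list. COL17A1, the hemidesmosome collagen, had H3K27me3 in all 6 lists and neither of the other modifications.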

How the data were processed

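As described by the authors and per the labels, reads were trimmed with Trim Galore 0.4.1, aligned to hg19 with Bowtie2 2.4.1, cleared of duplicates with Picard, and peaks were called for each library with MACS2 2.2.7.1, narrow for H3K4me3 and H3K27ac and broad for H3K27me3. The deposited lists give start and end, a display score, a fold ratio over background, and −log10 p and q values. The lowest −log10 q was 1.30 in narrow and 1.00 in broad lists, weaker than the limit the authors give for narrow peaks. Peaks of a list were merged, and covered bp were counted within 5 kb of every start site of basic coding transcripts (GENCODE v44 lifted to GRCh37). Values of bp + 100 were taken to log2 and tested with limma 3.58.1 (R 4.3.3), 3 groups of 2 libraries in 1 fit. Merging and the fit were tested on simulated data. Genes, lists and the rule for named genes (every gene by role, with all values where groups did not overlap for H3K27ac or H3K27me3 in a comparison or for H3K4me3 in both, H3K4me3 was in some lists, or H3K4me3 and H3K27me3 were in all) were chosen with earlier results of these data known. A gained or lost region was counted at 1 bp of overlap. Alternatives were a 2.5 kb window, stricter q, lists of equal length, all transcripts, each library left out, a pseudocount of 500 bp, peaks in at least 4 lists, and the replicate block. Scaling to 1 median and crossed replicate numbers were added after seeing the data.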

Additional observations from a re-analysis of the deposited data

How the results depend on the processing

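With 2 libraries a group, unknown depth and lists of very unequal length, no gene of the list passed limma's test in a fit of all 6 libraries. Same-numbered replicates of siControl and siPHF13+TGFb deviated together over genes (correlations of 0.15 to 0.49), those of the groups compared did not (-0.34 to 0.04), and with 2 libraries a group and no shared culture in the labels the numbers were not taken as pairs. With the replicate block limma called 0 genes in place of 19 (TGFb) and 24 (PHF13 depletion) for H3K4me3, and the block changed no call for the other modifications, which had 0. Crossed numbers, chosen after seeing the data, also gave 0 and 0. A pseudocount of 500 bp gave 0 and 0, peaks in at least 4 lists 0 and 0, only the 4 libraries of a comparison 2 and 0, and centred libraries 9 and 12.

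Scaling to 1 median, chosen after seeing the data, moved the genes of the list that were higher and lower with TGFb to 6 and 4 for H3K4me3, 7 and 1 for H3K27ac, and 4 and 2 for H3K27me3. With PHF13 depletion it gave 5 and 4, 1 and 2, and 3 and 4. Lists of equal length gave 1 lower with TGFb for H3K4me3, 4 higher with TGFb and 1 lower with PHF13 depletion of 10 left to test for H3K27ac, and 4 higher with TGFb and 2 higher with PHF13 depletion of 16 for H3K27me3. For intronic regions they gave 0 gained with TGFb, beside 7.61% of all intronic regions, at a log2 ratio of 0.46. With PHF13 depletion 1 was gained and 0 lost, of 6 left, beside 3.91% and 5.87%. A stricter q left 0 lower with TGFb, and 0 higher and 1 lower with PHF13 depletion, of 10 for H3K27me3. It also left 1 intronic region lost with TGFb, beside 0.0993% of all intronic regions. Within 2.5 kb of start sites 2 were lower in H3K27me3 with PHF13 depletion. Start sites of all transcripts moved 0 of 12 counts, and an overlap of 200 bp 0 of 4.

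With each library left out in turn, genes of the list higher and lower with TGFb ranged from 11 to 21 and 0 to 5 for H3K4me3, 13 to 23 and 0 to 0 for H3K27ac, and 1 to 12 and 1 to 13 for H3K27me3, the last 2 extremes without siControl replicate 2 and replicate 1. With PHF13 depletion the ranges were 0 to 4 and 14 to 27, 0 to 9 and 3 to 19, and 1 to 6 and 6 to 14, with the highest lower counts without siPHF13+TGFb replicate 2 and the highest higher counts without its replicate 1. Other libraries that moved a count were siControl+TGFb replicate 2 (19 higher with TGFb and 22 lower with PHF13 depletion for H3K4me3, 23 and 15 for H3K27ac) and siControl+TGFb replicate 1 (5 lower with TGFb for H3K4me3, 10 lower with PHF13 depletion for H3K27me3). Intronic regions gained and lost ranged from 10 to 39 and 0 to 3 with TGFb (log2 ratio 0.70 to 1.99), and 0 to 4 and 4 to 27 with PHF13 depletion (-4.12 to 0.07). Genes called by limma ranged from 0 to 138 and 0 to 146 for H3K4me3, both highest without siControl+TGFb replicate 2, 0 to 0 and 0 to 8985 for H3K27ac, and 0 to 901 and 0 to 0 for H3K27me3. A group with 1 library left was assumed to vary like the others. Except for intronic regions at equal length and at a stricter q, no shares of all genes are set beside the counts in this section. Those after scaling are given above, and the counts are not read as particular to the list. The causes were not tested.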
